A study of Mus musculus with 8 samples.

Results

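The comparison set 4 arrays of IRF-8 knockout (KO) progenitors against 4 arrays of IRF-8 wild-type (WT) progenitors, which are all 8 arrays of the series, with the cell type as a term of the model. It described the genes that moved the same way in both kinds of progenitor. Of 18132 genes in the deposited table, 10552 were tested. The 4 groups were KO all-lymphoid progenitors (ALP), WT ALP, KO common myeloid progenitors (CMP) and WT CMP, with 2 arrays each, all from bone marrow of C57BL/6 mice. ALP had been sorted as lineage-negative cells with c-kit, Flk2 and the IL-7 receptor alpha chain and without Ly6D or B220. CMP had been sorted as lineage-negative cells with high c-kit, with CD34 and Flk2, and without Sca-1, CD11c, CD16/32 or CD115. RNA of 2000 to 15000 double-sorted cells had been amplified, and 750 ng was hybridised to Illumina MouseRef-8 v2.0 bead arrays, which carry a set of probes for mouse genes. The design text speaks of wild-type mice alone, so the genotype rests on the label of each sample. The sources used here give neither the kind of deletion nor the age and sex of the mice, nor whether replicates came from separate animals. The p-values therefore reflect only how far these samples spread, which may be technical.

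IRF-8 belongs to the interferon regulatory factors, which bind the promoters of genes induced by interferon. It binds DNA weakly alone and acts with partners such as PU.1 and other IRF proteins, at elements that join a GAAA half-site to a second GAAA or to the GGAA core of ETS factors. In mouse bone marrow it is known for promoting monocyte and dendritic cell development and for restraining the production of neutrophils.

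Levels are given on the log2 scale of the deposited gene table, and a change is KO minus WT, so that 1 unit is a doubling in the KO. Between 43.3% and 49.6% of the probes were detected per array (detection p under 0.05), and the lowest level of a detected probe lay between 4.26 and 4.84. Replicate arrays correlated across genes at 0.945 in KO ALP, 0.838 in WT ALP, 0.933 in KO CMP and 0.944 in WT CMP. WT ALP array 2 stood apart, with a mean correlation of 0.825 with the other arrays, against 0.884 to 0.912 for the other 7. Of the sorted surface markers, Il7r had levels of 8.57 and 8.42 in KO ALP and 9.21 and 8.86 in WT ALP and was not detected in any CMP array, and Flt3, which encodes Flk2, was detected on all 8 arrays. Ly6d, a marker both ALP sorts left out, was detected at 5.57 to 6.59 on the 4 ALP arrays, and Csf1r and Itgax, which encode the CD115 and CD11c that the CMP sort left out, were detected on the 4 CMP arrays, as were Fcgr3 and Fcgr2b, of the CD16/32 it also left out. In sorted bulk samples, fewer cells of a type and less RNA per cell cannot be told apart.

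Irf8 itself had levels of 11.39 and 11.16 in KO ALP, against 10.95 and 10.87 in WT ALP. It had 10.80 and 10.79 in KO CMP, against 11.04 and 10.94 in WT CMP. The KO arrays lay above the WT arrays in ALP and below them in CMP, and the main effect was 0.08 (SE 0.22, limma adjusted p = 0.921). The position of the probe and of the deletion within Irf8 are unknown here, so this level is no check of the genotype or of the labels.

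Across both progenitors, the knockout moved few genes past the threshold, and those moved far. By limma with Benjamini-Hochberg adjustment, 7 of 10552 genes (0.0663%) passed an adjusted p of 0.05, 4 higher (0.0379%) and 3 lower (0.0284%) in the KO. The genes that fell were Ly86, Rnase6 and an unnamed transcript model, OTTMUSG00000000971, and those that rose were Diras2, Rhbdd3, Nkiras2 and Tdrd7. In each of the 7, both KO arrays lay beyond both WT arrays on the same side in ALP and in CMP, as they did for 1134 of all genes tested (10.7%), 607 above (5.75%) and 527 below (4.99%). An unadjusted p under 0.05 was reached by 1110 genes (10.5%), 600 higher (5.69%) and 510 lower (4.83%).

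Ly86, the gene of MD-1, a secreted protein that joins RP105 on the surface of B cells and antigen-presenting cells, had the smallest p. Its levels were 2.86 and 3.37 in KO ALP, against 8.56 and 7.97 in WT ALP, and 3.20 and 3.83 in KO CMP, against 8.62 and 8.38 in WT CMP. It was detected on every WT array and on no KO array, and the groups were far apart in both progenitors. The main effect was -5.07 (SE 0.26, limma adjusted p = 0.000645). Because the KO level is only a bound, the fall is given as at least 15.7-fold in ALP and at least 17.1-fold in CMP. Both were taken against the lowest detected level of each KO array. Such bounds, here and below, hold on the scale of the deposited table alone.

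Rnase6 encodes a secreted ribonuclease of the RNase A family and is listed here among plasmacytoid dendritic cell genes. Its levels were 7.20 and 6.52 in KO ALP, against 9.78 and 10.88 in WT ALP, and 4.91 and 6.06 in KO CMP, against 9.95 and 10.03 in WT CMP. It was detected on all 8 arrays, so its size is measured on both sides, and all KO arrays lay below all WT arrays. The main effect was -3.99 (SE 0.40, limma adjusted p = 0.0213).

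OTTMUSG00000000971, for which no current symbol was found, had 3.32 and 3.29 in KO ALP, against 6.92 and 7.51 in WT ALP. In CMP it had 3.46 and 3.31 in the KO, against 7.05 and 6.11 in the WT. Like Ly86 it was detected on all 4 WT arrays and on none of the KO arrays. The main effect was -3.55 (SE 0.30, limma adjusted p = 0.00952), at least 7.56-fold lower in KO ALP and at least 4.50-fold lower in KO CMP.

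Diras2, a small GTPase of the Ras superfamily, showed the opposite pattern. It had 8.52 and 7.50 in KO ALP, against 3.22 and 3.72 in WT ALP, and 7.14 and 7.91 in KO CMP, against 3.76 and 4.0 in WT CMP. It was detected on all KO arrays and on no WT array. It rose by 4.10 (SE 0.35, limma adjusted p = 0.00952), at least 10.5-fold in ALP and at least 8.07-fold in CMP.

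Rhbdd3, a membrane protein with a rhomboid domain, had 7.15 and 7.12 in KO ALP, against 2.90 and 2.33 in WT ALP, and 6.2 and 6.69 in KO CMP, against 3.55 and 3.54 in WT CMP. Here too only the KO arrays reached detection. The main effect was 3.71 (SE 0.37, limma adjusted p = 0.0213), at least 5.77-fold in ALP and at least 3.80-fold in CMP.

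Nkiras2, a Ras-like protein that binds the inhibitors of NF-kappaB, had 6.07 and 6.85 in KO ALP, against 3.74 and 3.35 in WT ALP, and 6.40 and 7.0 in KO CMP, against 4.38 and 3.88 in WT CMP. Tdrd7, a Tudor domain protein of RNA granules, had 6.07 and 6.68 in KO ALP, against 3.65 and 3.67 in WT ALP, and 6.90 and 6.54 in KO CMP, against 4.24 and 4.97 in WT CMP. Each was detected on all 4 KO arrays and on 1 WT array, a CMP array in both genes. The main effects were 2.74 (SE 0.29, limma adjusted p = 0.0222) for Nkiras2 and 2.42 (SE 0.28, limma adjusted p = 0.0409) for Tdrd7, and neither passed in any of the 8 fits that left out 1 array.

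**Figure D1:**
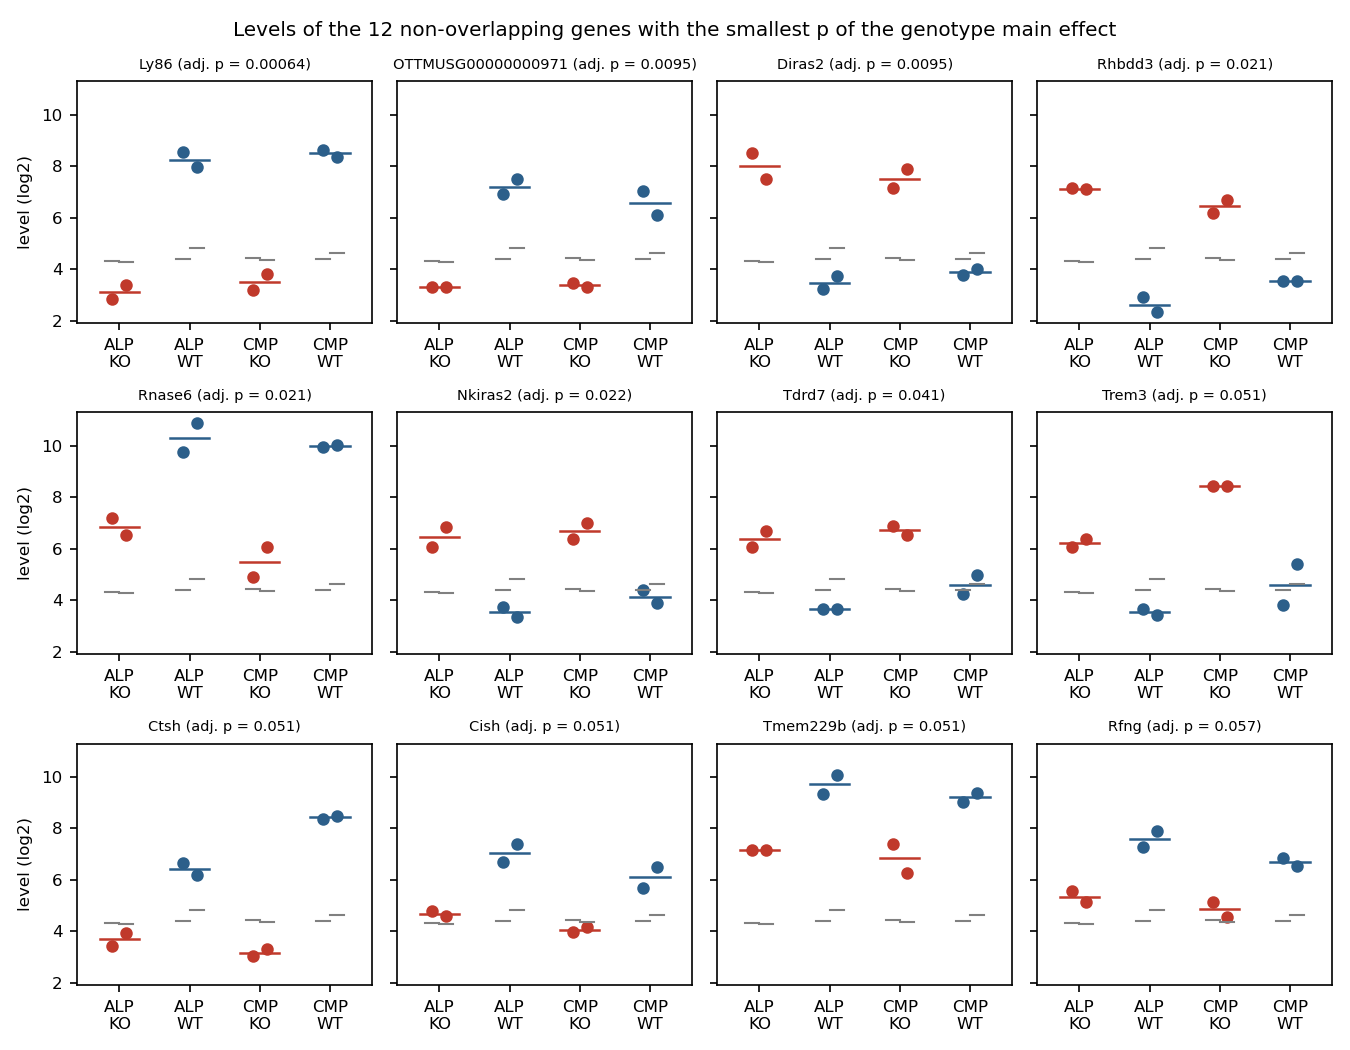
Levels (log2, y axis) of the 7 genes past the threshold and the next 5 by p, with KO arrays in red and WT arrays in blue for ALP and CMP. Points are arrays, coloured lines are means of 2 arrays, and short grey lines are the lowest detected level of each array. Ly86 lies below the grey lines in all 4 KO arrays and at 7.97 or more in all 4 WT arrays.

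The size of these changes differed with the background correction, so the folds given as at least are bounds on the deposited scale alone. From the scanner signals with background correction by the neqc method, the main effect was -3.57 for Ly86, -3.54 for Rnase6, -2.26 for OTTMUSG00000000971, 2.84 for Diras2 and 2.27 for Rhbdd3, all still past the threshold. It was 1.75 for Nkiras2 (limma adjusted p = 0.0488) and 1.56 for Tdrd7, which no longer passed (limma adjusted p = 0.0581). Without background correction it was -1.73 for Ly86 and -2.42 for Rnase6, and of the 7 genes these alone passed. In all, 7 genes passed without background correction, 3 higher and 4 lower, and 6 passed with median scaling in place of quantile normalization, 2 higher and 4 lower.

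Leaving out single arrays separated Ly86 from the rest. It passed in all 8 fits that left out 1 array, with a main effect between -5.21 and -4.94. Diras2 passed in 5 of the 8 fits and OTTMUSG00000000971 in 4, and Rhbdd3 and Rnase6 each passed in 2. Without KO ALP array 2, without KO CMP array 2 or without WT CMP array 1, Ly86 was the single gene called, and without KO ALP array 1 the count was 2. Without WT ALP array 2, the array that stood apart, 6 genes passed, 4 of the 7 among them. The direction of all 7 genes was the same in each of these fits.

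**Figure D2:**
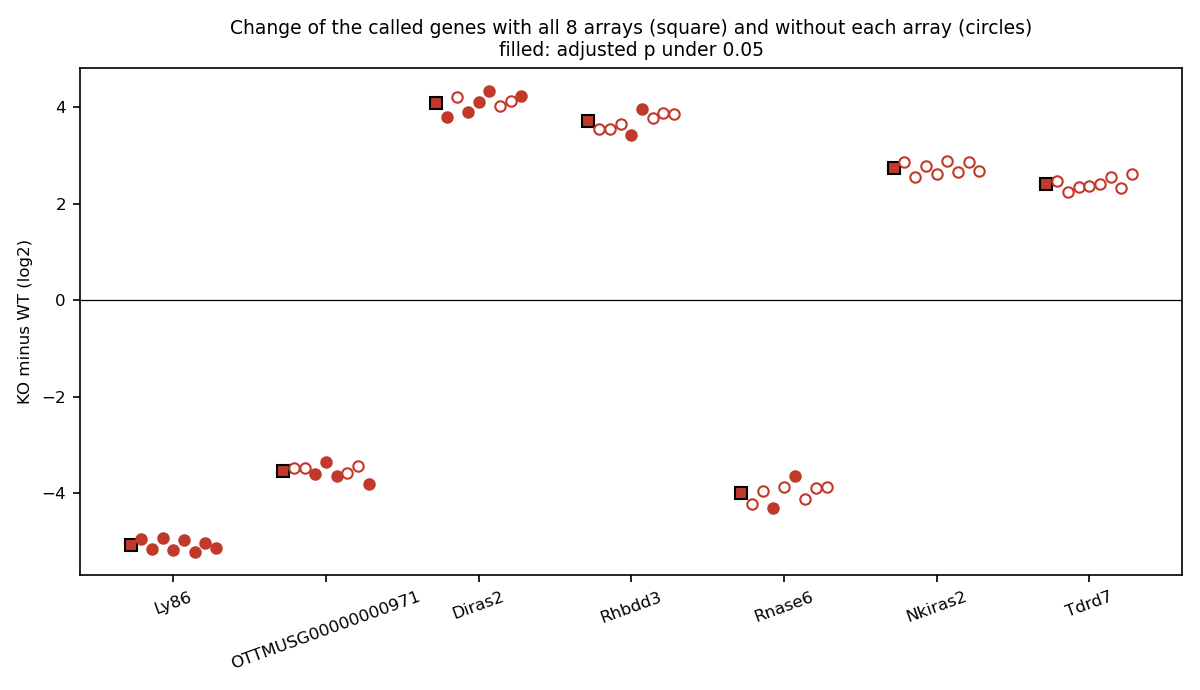
Main effect of genotype (KO minus WT, log2, y axis) for the 7 called genes, with all 8 arrays as squares and without each array in turn as circles. Filled symbols have an adjusted p under 0.05. Sizes moved little, between -5.21 and -4.94 for Ly86, while the calls of Nkiras2 and Tdrd7 were lost in all 8 fits.

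The 10 genes in each direction with the smallest p among those with separated arrays included others that did not pass. Ctsh, the lysosomal protease cathepsin H, had 3.42 and 3.95 in KO ALP, against 6.66 and 6.17 in WT ALP, and 3.03 and 3.29 in KO CMP, against 8.37 and 8.48 in WT CMP. It was detected on all WT arrays and on no KO array, with a main effect of -4.0 (SE 0.51, limma adjusted p = 0.0508) and bounds of at least 4.34-fold in ALP and at least 16.2-fold in CMP. The other genes lower in the KO were H2-Aa (described with its list), Tmem229b at -2.45, Cish at -2.20, LOC637082 at -2.29, Rfng at -2.04 and Gbp3 at -1.86. Cish encodes a cytokine-induced inhibitor of STAT5 signalling, and Rfng encodes a fringe enzyme that modifies Notch receptors. Tmem229b, which had 7.17 and 7.17 in KO ALP, 9.34 and 10.09 in WT ALP, 7.41 and 6.28 in KO CMP and 9.04 and 9.37 in WT CMP, was detected on all 8 arrays, and its adjusted p by limma was 0.0508.

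Trem3, a receptor of myeloid cells that signals through DAP12, had 6.07 and 6.39 in KO ALP, against 3.67 and 3.41 in WT ALP. In CMP it had 8.45 and 8.44 in the KO, against 3.81 and 5.40 in the WT. The KO arrays were higher throughout, and the main effect was 3.27 (SE 0.40, limma adjusted p = 0.0508). The others higher in the KO were Abca9, an ABC transporter, at 2.70, CCDC98 at 2.43, Ednra, an endothelin receptor, at 2.03, LOC100048313 at 1.73 and Cd300lb, an activating receptor of myeloid cells, at 1.64. None of these 6 passed, with adjusted p-values by limma of 0.0508 to 0.0996.

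Detection was also read apart from the size of the change. Of 18132 genes, 21 (0.116%) were detected on all 4 KO arrays and on no WT array, and 9 (0.0496%) on all 4 WT arrays and on no KO array. The lowest detected level was 4.84 on WT ALP array 2 and 4.65 on WT CMP array 2. It was 4.38 and 4.39 on the other WT arrays and 4.26 to 4.45 on the KO arrays. Zfp661, named after its values were seen, counted as KO-only with 4.52 on KO ALP array 1 and 4.56 on WT ALP array 2. The part of these levels in the counts was not tested. The WT-only genes were Ly86, OTTMUSG00000000971, Ctsh, H2-Aa, Pim1, Lysmd3, Lrrc1, Nr4a2 and Edem3, of which those after H2-Aa are named here after their values were seen. Pim1, a kinase induced by cytokines through STAT5, had 4.20 and 4.03 in KO ALP, against 5.09 and 5.89 in WT ALP, and 3.62 and 3.37 in KO CMP, against 4.69 and 4.81 in WT CMP. Its main effect of -1.31 did not pass (limma adjusted p = 0.150). Cish and Pim1 both lay low in the KO, but neither passed over all genes, and no list of STAT5 targets was read.

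Promoter windows of these genes were read because IRF-8 binds a known element. The letters searched on both strands were GAAA and GAAA with any 2 bases between them, the IRF element of interferon-induced genes; GGAA, any 2 bases and GAAA, an ETS-IRF composite; and GAAA, any 2 bases and GGAA, an IRF-ETS composite. A window could hold several of them, and they could overlap. Of the 20 genes named above with separated arrays, 14 had a window of 300 bases (250 before the start to 50 after it) in the RefSeq table of build GRCm38.p6, and 4 of these held a match. Any of the 3 elements was present in 10.9% of the genes with both KO arrays below both WT arrays in both progenitors, in 8.46% of those above, in 9.46% of the genes tested and in 8.37% of all promoters. The 4 are shown because their windows hold the matches, 1 window per gene, with the matched bases in capitals, read 5′ to 3′ on the strand of the gene.
Rnase6 (fell), chr14:51128814-51129113, plus strand: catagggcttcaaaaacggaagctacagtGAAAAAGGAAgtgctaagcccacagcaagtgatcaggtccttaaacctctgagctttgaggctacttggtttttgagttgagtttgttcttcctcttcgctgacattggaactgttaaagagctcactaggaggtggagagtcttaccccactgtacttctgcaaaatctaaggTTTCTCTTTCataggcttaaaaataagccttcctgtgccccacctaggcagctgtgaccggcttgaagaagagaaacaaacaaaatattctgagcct
Gbp3 (lower, not past the threshold), chr3:142559794-142560093, plus strand: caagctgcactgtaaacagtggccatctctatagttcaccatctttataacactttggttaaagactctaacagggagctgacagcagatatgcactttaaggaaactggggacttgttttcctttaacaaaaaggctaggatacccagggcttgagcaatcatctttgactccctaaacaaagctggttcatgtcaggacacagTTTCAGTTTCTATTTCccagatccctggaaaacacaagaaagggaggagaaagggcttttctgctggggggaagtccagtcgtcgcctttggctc
Tdrd7 (rose), chr4:45972047-45972346, plus strand: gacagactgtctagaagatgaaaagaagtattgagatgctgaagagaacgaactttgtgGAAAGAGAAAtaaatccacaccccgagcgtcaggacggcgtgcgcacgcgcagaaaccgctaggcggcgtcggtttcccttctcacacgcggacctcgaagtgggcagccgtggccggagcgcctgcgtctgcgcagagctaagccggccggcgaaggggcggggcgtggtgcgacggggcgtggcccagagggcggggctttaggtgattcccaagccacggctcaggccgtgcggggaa
Diras2 (rose), chr13:52530787-52531086, minus strand: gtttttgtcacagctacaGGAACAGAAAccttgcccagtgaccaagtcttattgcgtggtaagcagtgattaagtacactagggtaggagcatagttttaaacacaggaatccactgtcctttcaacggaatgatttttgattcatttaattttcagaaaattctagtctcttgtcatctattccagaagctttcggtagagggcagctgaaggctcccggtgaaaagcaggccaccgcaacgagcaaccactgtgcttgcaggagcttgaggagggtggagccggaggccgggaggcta

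In the Rnase6 window shown, the IRF element lies on the opposite strand from base -47 to -38 relative to the start, and an IRF-ETS composite from -221 to -212. Rnase6 had 3 windows, and 2 of them held a match. Relative to the start of the other matching window, the same bases lie at -20 to -11 and -194 to -185. Of 3 windows of Tdrd7 and 2 of Gbp3, 1 each held a match. Gbp3 held 2 overlapping IRF elements on the opposite strand, from -45 to -30. The match in Tdrd7 begins at -191 and that in Diras2, an ETS-IRF composite, at -232. Ly86 and H2-Aa had a window without any of these letters, and Ctsh had no window in the table. The IRF element was present in 5.84% of the 394 genes with both KO arrays below both WT arrays in both progenitors (23 genes), in 3.38% of the 473 genes above them (16 genes), and in 3.76% of the 7958 tested genes with a window, against 3.44% of all 32851 promoters. The IRF-ETS composite was present in 4.57% of the genes below, 2.96% of those above, 3.49% of those tested and 2.80% of all promoters. The ETS-IRF composite was present in 1.78% of the genes below, 2.54% of those above, 2.85% of those tested and 2.72% of all promoters. These shares describe letters in a window and show no binding.

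The changes in the progenitors were weakly related across genes. Across the 10552 genes, the change in ALP and that in CMP correlated with r = 0.184 (Spearman 0.158); genes are not independent replicates, and each change used its own KO and WT arrays. Without KO CMP array 2 r was 0.0995, and without KO CMP array 1 it was 0.205. The change was above 0 in both progenitors for 27.8% of genes, below 0 in both for 28.1% and of opposite sign for 44.1%. For 1 gene, P2ry6, the changes themselves differed past the adjustment (0.00948%), while 803 genes (7.61%) had an unadjusted p under 0.05 for this difference.

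**Figure D3:**
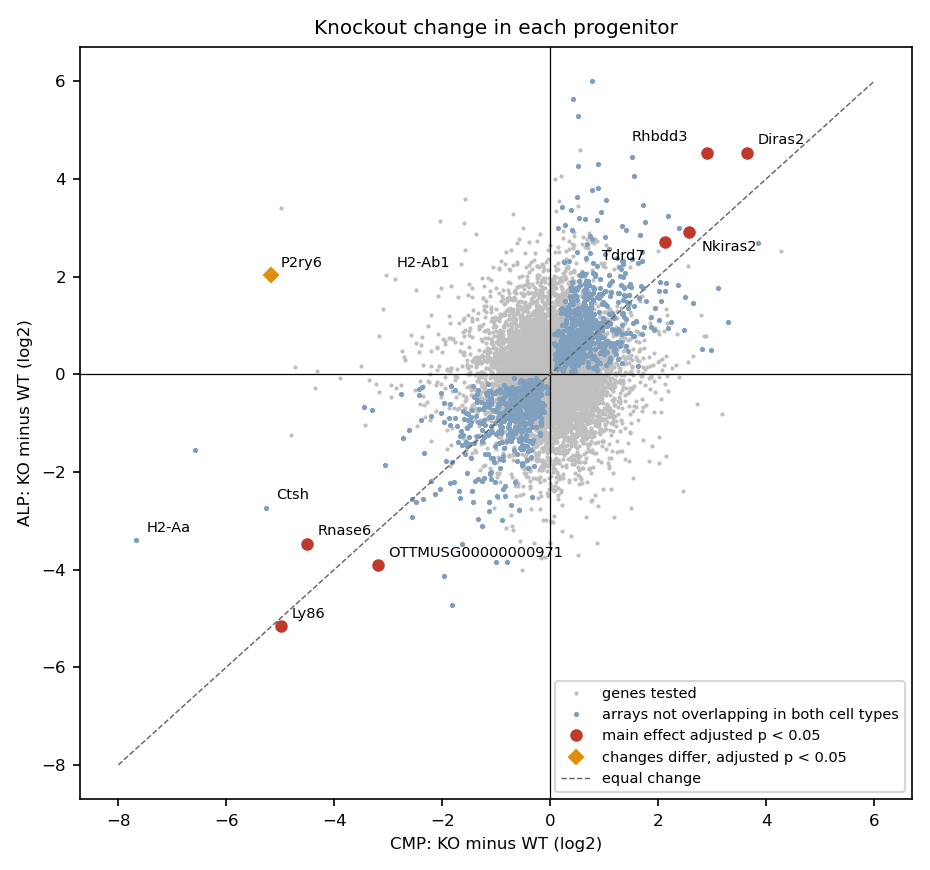
Change in ALP (KO minus WT, log2, y axis) against change in CMP (x axis) for 10552 genes. Red points are the 7 genes past the threshold of the main effect, blue points have arrays that do not overlap in both progenitors, and the orange diamond is P2ry6, whose changes differ between the progenitors. The red points lie near the dashed line of equal change, which the fit favours, since it counts unequal changes as error. Among them Rhbdd3 changed by 4.52 in ALP and 2.90 in CMP. H2-Aa and Ctsh lie toward the CMP side.

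Genes of MHC class II presentation, which load and display peptides on antigen-presenting cells, had more members lower than higher in the KO, with larger differences in CMP. Of 15 listed, 14 were tested and none passed, and 6 (42.9%) had an unadjusted p under 0.05, all lower, against 4.83% of all genes tested. Of the members, 7 (50%) had a change below 0 in both progenitors, against 28.1% of all genes tested, and 1 (7.14%) above 0 in both, against 27.8%. The median main effect was -1.0, against -0.0047 for all genes tested, with medians of -0.24 in ALP and -1.91 in CMP. It was -0.63 without WT CMP array 1, -0.66 without KO CMP array 1 and -0.42 without background correction. H2-Aa, an alpha chain of the class II molecule, had 3.0 and 3.65 in KO ALP, against 6.02 and 7.44 in WT ALP, and 2.97 and 3.38 in KO CMP, against 10.87 and 10.83 in WT CMP. The KO arrays were all undetected, and the main effect was -5.54 (SE 0.83, limma adjusted p = 0.0984), at least 5.40-fold lower in ALP and at least 86.9-fold lower in CMP. The change in ALP minus that in CMP was 4.27 (95% interval 2.54 to 5.99, limma adjusted p = 0.315).

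Cd74, the invariant chain that escorts class II molecules, had 5.67 and 6.11 in KO ALP, against 7.28 and 7.59 in WT ALP, and 5.99 and 3.63 in KO CMP, against 11.46 and 11.33 in WT CMP. The KO arrays were lower in both progenitors, with a main effect of -4.07 (SE 1.01, limma adjusted p = 0.288). H2-Eb1 lay at -3.02 and H2-DMb1, a part of the peptide-exchange factor DM, at -1.25, and in both the ALP arrays of the genotypes overlapped. H2-Ab1, the beta chain that pairs with H2-Aa and is named here after its values were seen, had 8.83 and 8.80 in KO ALP, against 6.14 and 7.42 in WT ALP, and 8.75 and 8.50 in KO CMP, against 11.69 and 11.63 in WT CMP. Its KO arrays lay above the WT arrays in ALP and below them in CMP (difference 5.07, 95% interval 3.58 to 6.56, limma adjusted p = 0.140). In the list, 6 of 14 members (42.9%) had changes of opposite sign in the progenitors, against 44.1% of all genes tested. H2-DMb2, another beta chain of DM and also named after its values were seen, had changes of 0.77 in ALP and -3.17 in CMP.

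Among lysosomal enzymes and membrane proteins none of the 31 tested (of 35 listed) passed. At an unadjusted p under 0.05, 4 (12.9%) were lower, against 4.83% of all genes tested, and 2 (6.45%) higher, against 5.69%, with a median of -0.04. The lower members were cathepsins H, S and B and the saposin precursor Psap, at -4.0, -1.17, -0.90 and -0.79, each with separated arrays. Ctsf and Tpp1 were the higher ones, at 2.00 and 1.54. In the list as a whole, 19 of 31 members (61.3%) had changes of opposite sign in the progenitors, against 44.1% of all genes tested.

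In the monocyte and macrophage list, Ly86 fell and no other of the 20 tested (of 28 listed) passed. Lgals3, Aif1, Pou2f2 and Irf5 were also lower at an unadjusted p under 0.05, and F13a1, Ccl9 and Adgre1 were higher, which makes 25% lower and 15% higher, against 4.83% and 5.69% of all genes tested. F13a1, a coagulation factor subunit made by monocytes, had 8.12 and 9.06 in KO ALP, against 3.66 and 5.0 in WT ALP, but 9.75 and 9.83 in KO CMP, against 9.59 and 8.95 in WT CMP. Lgals3, which encodes galectin-3, was detected on the WT CMP arrays alone, at 7.58 and 7.21, against 3.03 and 3.10 in KO CMP, so that its main effect of -2.13 came from CMP. Lgals3 reached the level needed for testing in WT CMP alone. The median of the list was -0.05.

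In the conventional dendritic cell list none of the 12 tested (of 22 listed) passed. At an unadjusted p under 0.05, 6 (50%) were lower, against 4.83% of all genes tested, and 1 (8.33%) higher, against 5.69%, and the median was -0.75. Among the lower members, Batf3 was tested only through the WT CMP arrays (6.41 and 6.29), where alone it was detected. For such a member the filter favours a count as lower. The median was -0.42 without WT ALP array 2 and -0.16 with genes at or above the table median on at least 4 arrays. Dpp4 at -1.55, Clec9a, a receptor for dead cells, at -1.21, and the lectin listed as MGL1 at -0.98 had separated arrays in both progenitors. Id2 and Batf3, transcription factors needed by one branch of these cells, had larger differences in CMP, but the difference between the progenitors did not pass (limma adjusted p = 0.0649 for Id2 and 0.140 for Batf3). Id2 had 3.93 and 4.20 in KO CMP, against 8.84 and 8.74 in WT CMP, but 5.95 and 5.92 in KO ALP, against 5.57 and 6.03 in WT ALP. Itgax, which encodes CD11c, stood on the other side, with 7.94 and 8.60 in KO ALP, against 6.11 and 7.06 in WT ALP, and 7.18 and 7.11 in KO CMP, against 5.65 and 6.38 in WT CMP (main effect 1.41, SE 0.32, limma adjusted p = 0.256).

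Of the 14 tested members of the plasmacytoid dendritic cell list (of 20 listed), Rnase6 fell, and 4 members (28.6%) had an unadjusted p under 0.05, all lower, against 4.83% of all genes tested. The median was -0.35, or -0.080 without background correction. In both progenitors 8 members (57.1%) were below 0, against 28.1% of all genes tested, and 1 (7.14%) above, against 27.8%. Siglech, among the lower members, was detected on no CMP array, and its change was -1.45 in ALP and -0.06 in CMP. Pld4, an endolysosomal nuclease, had 4.03 and 6.15 in KO ALP, against 7.58 and 7.73 in WT ALP, and 5.13 and 5.75 in KO CMP, against 8.24 and 7.75 in WT CMP. All KO arrays lay below all WT arrays of the same progenitor, and the changes were -2.57 in ALP and -2.56 in CMP (main effect -2.56, SE 0.44, limma adjusted p = 0.124). Bcl11a, a transcription factor of lymphoid and plasmacytoid dendritic cells, lay at -1.61 and was also separated in both.

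Neutrophil primary granule genes, which encode proteases and enzymes stored in the granules that form first, had more members higher than lower in the KO. None of the 13 tested (of 15 listed) passed. At an unadjusted p under 0.05, 5 (38.5%) were higher, against 5.69% of all genes, and 0 were lower. In both progenitors 8 (61.5%) were above 0, against 27.8% of all genes, and 1 (7.69%) below, against 28.1%. The median was 0.51, or 0.26 with median scaling. Prtn3, proteinase 3, had 9.23 and 9.87 in KO ALP, against 6.95 and 5.43 in WT ALP, and 11.36 and 11.40 in KO CMP, against 11.04 and 10.94 in WT CMP. Ctsg, cathepsin G, had 10.56 and 10.69 in KO ALP, against 7.35 and 7.80 in WT ALP, and 11.07 and 11.14 in KO CMP, against 10.92 and 10.73 in WT CMP. Both were separated in both progenitors, but the change was 3.36 in ALP and 0.39 in CMP for Prtn3, and 3.05 and 0.27 for Ctsg. The difference between the changes was 2.77 for Ctsg (95% interval 1.75 to 3.79, limma adjusted p = 0.251). Serpinb1a, an inhibitor of these proteases, was closer to even, with 1.17 in ALP and 0.67 in CMP.

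The late granule and receptor list had 17 members tested of 30 listed, none past the threshold. At an unadjusted p under 0.05, 2 (11.8%) were higher, against 5.69% of all genes tested, and 0 lower. The median was 0.17, or -0.0046 with background correction by neqc and 0.08 without KO ALP array 1. Besides Trem3 the higher member was Mmp8, a collagenase of neutrophil granules, which had 6.43 and 5.74 in KO CMP, against 3.25 and 3.13 in WT CMP, while the ALP arrays of the genotypes overlapped near or below detection. Mmp8 reached the level needed for testing on KO arrays alone.

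**Figure D4:**
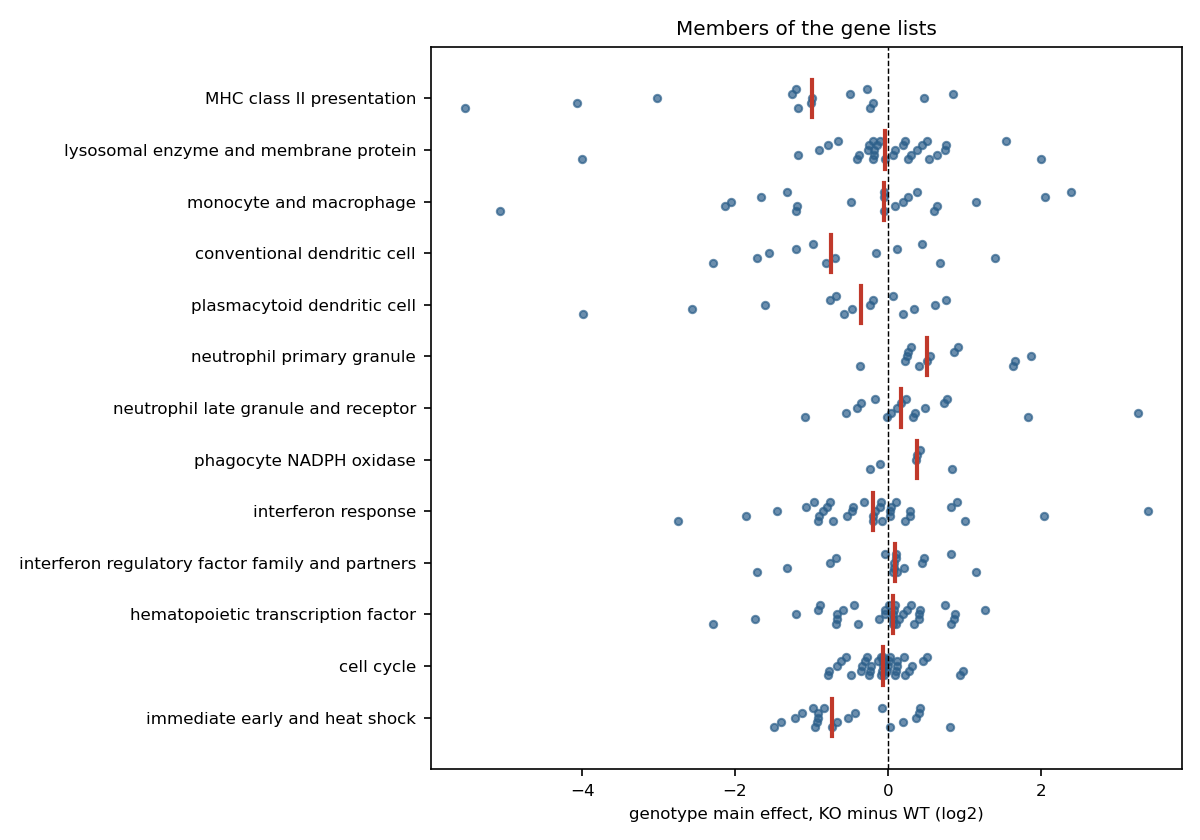
Main effect of genotype (KO minus WT, log2, x axis) for the tested members of 13 gene lists. Blue points are genes, red bars are list medians, and the dashed line is the median of all genes tested. The medians run from -1.0 for MHC class II presentation to 0.51 for neutrophil primary granule.

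Interferon-induced genes lay on both sides. None of the 33 tested (of 43 listed) passed. At an unadjusted p under 0.05, 8 (24.2%) were lower, against 4.83% of all genes tested, and 3 (9.09%) higher, against 5.69%. Below 0 in both progenitors were 15 (45.5%), against 28.1% of all genes, and above 0 in both 8 (24.2%), against 27.8%, and the median was -0.19. Gbp3, a guanylate-binding protein induced by interferon, had 4.81 and 5.26 in KO ALP, against 6.47 and 7.15 in WT ALP, and 4.62 and 5.48 in KO CMP, against 6.92 and 7.06 in WT CMP. Its changes were -1.78 and -1.94, close to equal, with separated arrays (main effect -1.86, SE 0.28, limma adjusted p = 0.0996). Ifi27, at -2.74, and Usp18, a protease that removes ISG15, at -1.46, were separated on the same side.

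Ddx58, which encodes the RNA sensor RIG-I, stood on the other side, with 7.96 and 7.16 in KO ALP, against 5.6 and 6.60 in WT ALP, and 7.21 and 6.74 in KO CMP, against 4.40 and 4.27 in WT CMP. Its KO arrays were higher in both progenitors (main effect 2.05, SE 0.37, limma adjusted p = 0.147). Oas2, an antiviral synthetase, lay at 3.40, but its WT ALP arrays were 7.83 and 3.33 and the genotypes overlapped there. The signal factors Stat2 and Irf9 lay at -0.91 and -0.75, each with an unadjusted p under 0.05 and neither past the adjustment.

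Genes of the immediate early and heat shock classes, induced within a short time by signals or handling, had more members lower than higher in the KO. None of the 21 tested (of 25 listed) passed. At an unadjusted p under 0.05, 6 (28.6%) were lower, against 4.83% of all genes tested, and 1 (4.76%) higher, against 5.69%. Below 0 in both progenitors were 13 (61.9%), against 28.1% of all genes, and above 0 in both 3 (14.3%), against 27.8%. The median was -0.74, or -0.32 without background correction. It was -0.51 without WT ALP array 1, -0.54 without WT CMP array 1 and -1.01 without WT CMP array 2. The summed level of the list was 187.1 and 172.3 in WT ALP, against 165.0 and 166.9 in KO ALP. In CMP it was 179.2 and 164.0 in the WT, against 163.8 and 162.6 in the KO, so WT array 1 was the higher in each progenitor. Fos, a transcription factor of this class, had 8.40 and 8.60 in KO ALP, against 10.71 and 9.64 in WT ALP, and 9.18 and 7.74 in KO CMP, against 9.90 and 8.54 in WT CMP. The genotypes overlapped in CMP. The part of this list in the other differences was not tested.

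Markers of other cells gave no gene past the threshold. The megakaryocyte and erythroid list had a median of -0.64, or -0.17 without WT CMP array 2 and -1.2 without WT CMP array 1, with 0 of 11 members at an unadjusted p under 0.05. WT CMP array 2 was high in Klf1 (8.27), Mfsd2b (9.03), Aqp1 (8.72) and Gp5 (7.59), against 3.99, 4.29, 3.80 and 3.41 on WT CMP array 1. KO CMP array 2 was also above KO CMP array 1 in Itga2b (6.92 against 3.72), Pf4 (5.31 against 3.22) and Aqp1 (5.43 against 3.98), but not in Klf1 (3.36 against 4.06). In each CMP genotype, 10 of the 17 markers of this list were detected on array 2 and 5 on array 1. Between 4 and 10 of the 17 were detected on the KO arrays and also between 4 and 10 on the WT arrays. Their summed level ran from 76.8 to 93.4 on KO arrays and from 79.7 to 112 on WT arrays. The B lymphoid, T lymphoid, NK, mast cell and stromal lists had medians of 0.08, 0.04, -0.04, 0.12 and -0.36, over 8, 7, 6, 5 and 2 tested members. The defining markers Pax5, Cd3d, Cd3g, Ncr1 and Col1a1 were not detected on any array, whereas Cd79b, Trat1, Nkg7, Prf1 and Pecam1 of the same lists were detected on all 8 arrays and Rag1 and Lck on all 4 ALP arrays. Of the 8 tested B lymphoid members, 1 was higher and 1 lower at an unadjusted p under 0.05. Vpreb1, a part of the pre-B cell receptor, had 8.14 and 8.29 in KO ALP, against 4.19 and 4.23 in WT ALP (main effect 2.05, limma adjusted p = 0.433). In CMP its genotypes overlapped, with 5.71 and 4.32 in the KO, against 4.20 and 5.65 in the WT, so this main effect came from ALP. Blnk went the other way in ALP, with 6.24 and 4.02 in the KO, against 7.62 and 7.48 in the WT. The part of these markers in the other differences was not tested. Without WT CMP array 2, 3 genes passed the main effect, with Ly86 among them.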

How the data were processed

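Per the deposited table, the log2 values are 1 per gene, with nearly the same distribution on every array and the low end spread out, and the method by which the authors normalized them was not given in the sources used here. Linear signal intensities per probe, with no normalization apparent, and detection p-values came from a second table the authors deposited. One detection column without a replicate number was assigned to WT CMP array 1, the array left over.

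Genes at or above the table median (4.13) on at least 2 arrays were kept. A gene could thus enter through 1 group alone, as Batf3 and Lgals3 did through WT CMP. limma 3.58.1 in R 4.3.3 fitted genotype and cell type by lmFit and eBayes, with 5 residual and 2.91 prior degrees of freedom and Benjamini-Hochberg adjustment at 0.05. A fit of the 4 group means (4 residual and 2.81 prior degrees of freedom) gave the changes in each cell type and their difference. Probes were linked to 16945 of 18132 genes (93.5%) by matching values within 0.0003 log2; of 2000 genes with shuffled values 0 were linked to 1 probe, and of 300 tried in the other searches 0 were linked to a pair and 1 to 3 or more probes. Detection was read from the level of detected single probes on each array, and names were updated to RefSeq symbols for 2660 genes, with 1167 kept. A fold given as at least used, per array, the lowest detected level or the level of the gene itself, whichever was higher. It holds on the scale of the deposited table alone.

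Named genes were Irf8, the genes past the threshold that moved the same way, the 10 smallest p-values in each direction among genes with separated arrays (fewer than 5 passed in each direction), and up to 4 members with the largest main effect of each described list. Other genes were chosen after their values were seen. The genes described and the gene lists were chosen with earlier results of these data known. There were 13 described lists, and 7 lists of other cells and sort markers. Alternatives changed the filter, background correction, scaling, fit and threshold, added a replicate block and left out each array; the fit was tested on simulated data. The number of arrays limits the precision. Tables and figures were made in Python 3.11.15 (numpy 2.4.6, pandas 2.3.3, matplotlib 3.10.9).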

Additional observations from a re-analysis of the deposited data

Results flagged for a closer look

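P2ry6, a receptor for extracellular UDP, is given because its change differed between the progenitors by a test of the difference itself. It had 5.43 and 5.65 in KO ALP, against 3.25 and 3.79 in WT ALP, and 3.38 and 3.20 in KO CMP, against 8.25 and 8.70 in WT CMP. It was detected on both KO ALP arrays and on neither WT ALP array, and on both WT CMP arrays and on neither KO CMP array, so the genotypes stood in opposite order. The change was 2.02 in ALP (at least 1.90-fold higher) and -5.18 in CMP (at least 16.7-fold lower), and the change in ALP minus that in CMP was 7.20 (95% interval 6.06 to 8.34, limma adjusted p = 0.0186). It was chosen after its values were seen. No gene passed this difference by limma in 7 of the 8 fits that left out 1 array, where 544 to 1939 genes had an unadjusted p under 0.05, and the exception was the fit without WT ALP array 2.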

How the results depend on the processing

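The main effect called 7 genes, all moved the same way, which its fit favours by counting unequal changes as error. It called 12 with genes at or above the table median on at least 4 arrays, 12 with an intensity trend and robust fitting, and 18 with the mean of the changes from the 4-group fit, of which 15 moved the same way. It called 3 at an adjusted p of 0.01, 22 at 0.10, and 1 to 6 without single arrays. With the replicate number as a block it called 3, all among the 7. Across genes, same-numbered arrays did not deviate together (correlations -0.12 to 0.07). In both CMP genotypes, though, 10 of 17 megakaryocyte and erythroid markers were detected on array 2, against 5 on array 1. Whether the numbers pair the samples is not known. Crossing the KO CMP numbers, a choice made after seeing the data, also gave 3. The difference between the progenitors called 1 gene, 3 without a filter, 7 without background correction, 6 with trend and robust fitting, 3 at an adjusted p of 0.10, 0 to 2 without single arrays, and 0 by limma with the block (795 at an unadjusted p under 0.05), at a threshold of 0.01, where 803 had an unadjusted p under 0.05, or with values raised to a common floor (686 unadjusted), a choice also made after seeing the data. Without background correction 2 of the 7 genes, Ly86 and Rnase6, were kept; the cause was not tested. The change of Irf8 was -0.13 with median scaling and ranged from -0.018 to 0.161 without single arrays, and that of H2-Ab1 from -1.26 to 0.054. Of the settings for named genes, 1233 kept direction and side of the threshold, 54 lost the call, 24 gained it and 4 turned the direction. Most named genes were not called at first, so a call could be lost by the 7 called genes alone. Of the 12 other settings that kept all arrays, Ly86 passed in 12, Diras2 in 11 and OTTMUSG00000000971 and Rnase6 in 10 each. Rhbdd3 passed in 9 of them, Nkiras2 in 7 and Tdrd7 in 6. Levels under about 4.26 to 4.84 lay below detection, so changes of genes detected in 1 genotype alone have no measured size.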

Other observations

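Genes of the phagocyte NADPH oxidase, which makes superoxide in neutrophils and macrophages, had 6 members tested of 7 listed and none past the threshold. In both progenitors 4 (66.7%) were above 0, against 27.8% of all genes tested, and 0 below, against 28.1%, and the median was 0.38. Ncf1, the p47 organiser subunit, had 8.71 and 8.73 in KO ALP, against 7.70 and 7.75 in WT ALP, and 8.16 and 8.57 in KO CMP, against 7.47 and 7.89 in WT CMP. The KO arrays lay above the WT arrays in both progenitors, with a main effect of 0.84 (SE 0.22, limma adjusted p = 0.301). In the interferon regulatory factor list, none of the 16 tested (of 18 listed) passed and the median was 0.09, or -0.08 with median scaling. Irf5, a factor of monocytes, lay at -1.33 and Irf3 at 1.15, and the genotypes overlapped in at least 1 progenitor for both.

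Of 34 hematopoietic transcription factors tested (of 44 listed) none passed, 2 (5.88%) were higher, against 5.69% of all genes tested, and 3 (8.82%) lower, against 4.83%, at an unadjusted p under 0.05, and the median was 0.07, or -0.06 with median scaling. Tal1, a factor of stem and erythroid cells, had 5.85 and 5.04 in KO ALP, against 4.19 and 3.44 in WT ALP, and 7.46 and 7.66 in KO CMP, against 6.00 and 7.32 in WT CMP (main effect 1.27, SE 0.38, limma adjusted p = 0.363). Bach2, a repressor known from B cells, had 5.49 and 4.46 in KO CMP, against 8.02 and 8.65 in WT CMP, and the difference between the progenitors did not pass (limma adjusted p = 0.445). Of 37 cell cycle genes tested (of 40 listed) none passed, 1 (2.7%) was higher, against 5.69% of all genes tested, and 2 (5.41%) lower, against 4.83%, at an unadjusted p under 0.05, and the median was -0.06. Aurka and Foxm1, which act in mitosis, lay at -0.61 and -0.54 with separated arrays, and Ccne2, a cyclin of S phase entry, at 0.99. Sort markers had a median of -0.06 over 10 members.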
